A study of Mus musculus with 8 samples.

Results

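Mature microRNAs (miRNAs) of splenic CD8+ T cells labelled MP were compared between the genotypes mCre and WT, with 2 libraries of each genotype, 4 of the 8 libraries in the series. Libraries were assigned to these groups by their sample titles. The other 4 libraries are CD8+ T cells labelled TN, also 2 mCre and 2 WT. The design text writes VM where the titles write MP. Neither abbreviation is spelled out in the labels. VM is a common short form for virtual memory cells, CD8+ T cells of memory phenotype that have not met foreign antigen, and TN for true naive cells. Per the labels' protocols, cells from mouse spleen were enriched on magnetic beads and sorted on CD8, CD4, CD44 and CD122 to about 97% purity, and 10000 sorted cells went into each RNA extraction. Inserts of about 18 to 35 nucleotides were sequenced from ligation-based small RNA libraries. One protocol text names adult or neonatal mice for all 8 libraries, with no age by library. The series title names miR-29 and Cre, a recombinase that removes marked DNA. The labels do not say what mCre removes, what drives the recombinase, which strain was used or whether animals were pooled. Whether a group's replicates are different mice is also unstated, so each p-value here rests on library spread that may be only technical.

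A miRNA is cut from the stem of a hairpin precursor, whose 5p and 3p arms can each become a mature strand. One arm, the guide, usually settles in an Argonaute protein, and its seed, bases 2 to 8, selects the messenger RNAs to be repressed. Members of a family share a seed, and hairpins that lie close together are often transcribed as one cluster. In T cells, miR-29 is known to restrain interferon-gamma and T-box factors, let-7 to hold back proliferation and effector function, and the miR-17-92 cluster to promote expansion.

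Mature sequences of miRNAs read below are given from RefSeq (GRCm38.p6), 5′ to 3′, with the seed in capitals. Of the 23 miRNAs past the threshold, 19 had a sequence there. The miR-29 forms come first, then the let-7 members, of which a, c and e passed and b, f and g did not. The lower guides with a shared seed follow, then other members of interest. The miR-29 forms, miR-16-5p, miR-342-5p and miR-664-5p did not pass either.
miR-29a-3p: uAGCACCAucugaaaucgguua
miR-29b-3p: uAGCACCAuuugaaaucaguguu
miR-29c-3p: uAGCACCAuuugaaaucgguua
let-7a-5p: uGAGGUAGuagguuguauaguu
let-7b-5p: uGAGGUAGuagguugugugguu
let-7c-5p: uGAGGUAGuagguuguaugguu
let-7e-5p: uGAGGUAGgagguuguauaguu
let-7f-5p: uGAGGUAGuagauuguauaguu
let-7g-5p: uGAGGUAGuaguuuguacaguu
miR-17-5p: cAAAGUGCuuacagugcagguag
miR-93-5p: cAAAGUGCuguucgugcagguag
miR-106b-5p: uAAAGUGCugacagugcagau
miR-15b-5p: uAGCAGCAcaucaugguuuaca
miR-16-5p: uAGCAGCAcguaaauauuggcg
miR-423-5p: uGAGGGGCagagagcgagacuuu
miR-148a-3p: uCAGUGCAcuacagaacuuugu
miR-150-3p: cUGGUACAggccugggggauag
miR-342-3p: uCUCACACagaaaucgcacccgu
miR-342-5p: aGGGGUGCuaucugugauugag
miR-664-3p: uAUUCAUUuacuccccagccua
miR-664-5p: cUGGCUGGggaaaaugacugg

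The 4 MP libraries held 3295379 and 3920356 miRNA counts in WT and 2140365 and 3061363 in mCre (libraries 1 and 2 of each). The first mCre library was the shallowest, with 416 miRNA names above 0 against 514 in the second and 582 and 589 in WT. Over the 337 miRNAs that passed the filter on low counts, the Spearman correlation of log2 CPM (counts per 1000000 counts of the scaled library) was 0.97 between the WT libraries, 0.95 between the mCre libraries and 0.87 to 0.93 across genotypes. Libraries of 1 kind share the most abundant miRNAs, so these values describe likeness only. In TN, the library labelled mCre replicate 2 had 1.59% miR-29, the highest of the 8, and the library labelled WT replicate 2 had 0.0774%, the lowest. This order of the genotypes was the reverse of that in MP and in TN replicate 1 (0.355% in WT and 0.17% in mCre). Any value below that uses TN libraries rests on them as labelled.

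The miR-29 family was read first, because the title names it. Its summed strands took 0.369% and 1.14% of the counts in the WT MP libraries, and 0.0787% and 0.133% in the mCre MP libraries. The 95% Wilson intervals, which cover counting error only, were 0.362% to 0.375%, 1.13% to 1.15%, 0.0751% to 0.0826% and 0.129% to 0.137%. Both mCre libraries thus lay below both WT libraries, and both still held miR-29 reads. In such bulk libraries, fewer cells of a type and less RNA per cell cannot be told apart. The exact two-sided permutation test gave p = 0.333, the smallest that 2 libraries against 2 allow. miR-29a-3p, cut from a hairpin on chromosome 6 (31062660 to 31062747, GRCm38, inside no other annotated gene), was 2943 and 9948 CPM in WT and 850.7 and 1409 CPM in mCre. WT library 2 stood apart from WT library 1 by more than the mCre libraries differed. The log2 change was -2.51 ± 0.64 (SE), 5.70-fold lower, which did not pass (edgeR adjusted p = 0.0634). Without WT library 2 it was -1.25 (edgeR adjusted p = 0.362), and over all 13 alternatives the adjusted p ran from 2.15e-07 to 0.411, with 8 of them past the threshold. miR-29b-3p was 135.0 and 375.6 CPM in WT and 39.5 and 66.7 CPM in mCre, a log2 change of -2.26 ± 0.59 (edgeR adjusted p = 0.0634). miR-29c-3p, from chromosome 1 (195037547 to 195037634, in an exon of the noncoding gene A330023F24Rik and opposite an exon of Cd46), was 19.2 and 37.2 CPM against 5.95 and 5.13 CPM, a change of -2.35 ± 0.55 (edgeR adjusted p = 0.0549). miR-29b-3p passed in 6 and miR-29c-3p in 8 of the same 13 alternatives. The 3 guide strands share the seed AGCACCA. The partner strands showed no such separation. miR-29c-5p was 6.40 and 2.79 CPM in WT and 15.2 and 6.23 CPM in mCre, and miR-29b-1-5p was 5.64 and 4.88 CPM against 0.541 and 8.43 CPM, with overlap between the genotypes in both.

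Across all miRNAs, mCre MP cells held more of several let-7 members, miR-423-5p and miR-148a-3p, and less of guides from the miR-17-92, miR-106b-25, miR-15b, miR-23 and miR-30 loci. Of 337 miRNAs tested, 23 passed edgeR's quasi-likelihood test at an adjusted p under 0.05 (6.82%), with 8 higher in mCre (2.37%) and 15 lower (4.45%). All 23 separated the genotypes without overlap, but so did 225 of the 337 tested (66.8%), 110 higher and 115 lower (32.6% and 34.1%), so absence of overlap singles out none of them. The adjusted p of the 23 ran from 0.0474 to 0.0492, and the next was 0.0515, so the list ends just under the threshold. Among the 121 miRNAs with a mean of at least 100 CPM, 19 were at least 2-fold higher and 26 at least 2-fold lower in mCre by the fitted value. In 22 of the 23 the first mCre library, the shallowest, lay farther from the WT mean than the second did. The exception was miR-19b-3p. The part of depth in these differences was not tested.

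**Figure D1:**
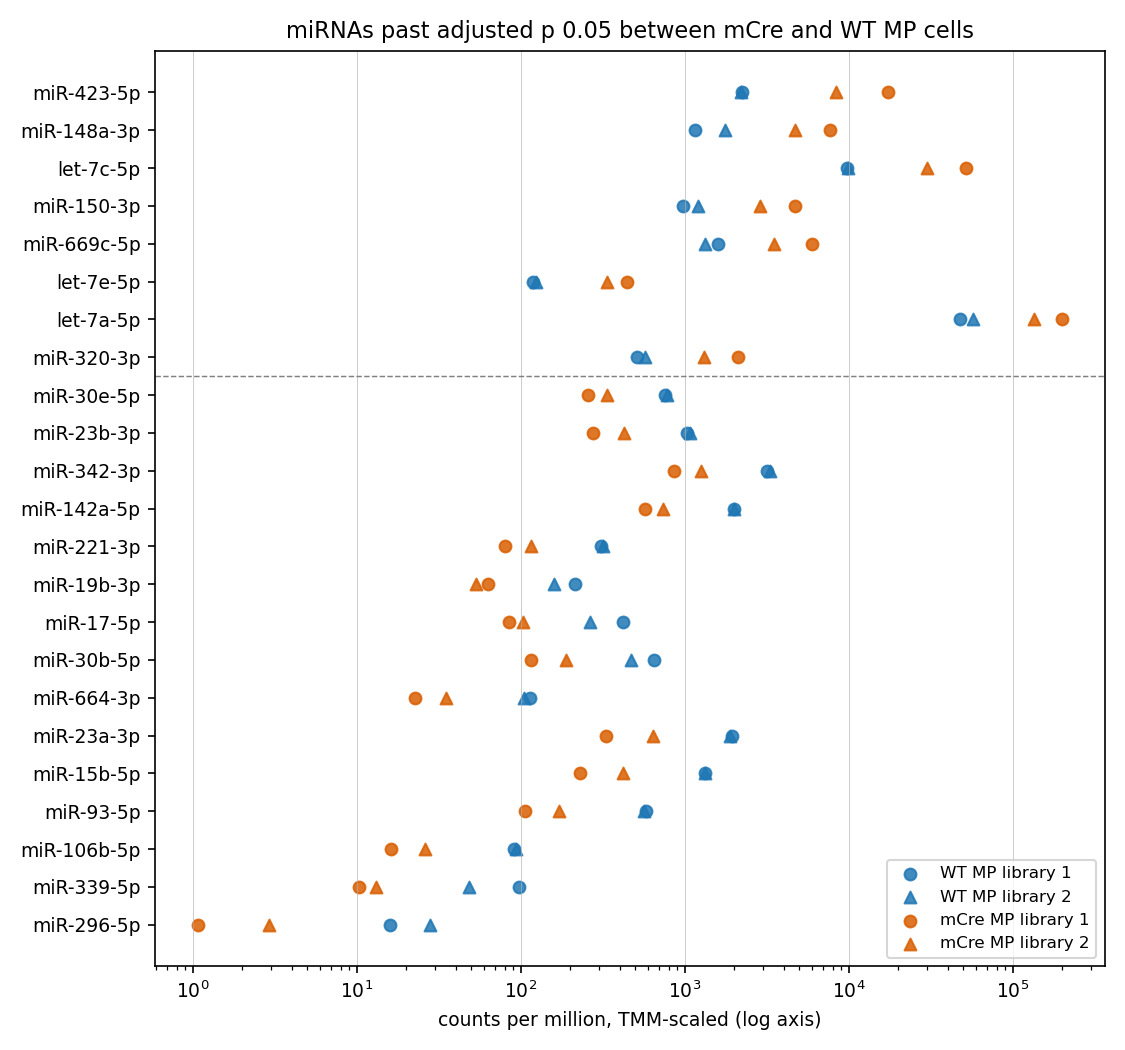
CPM after TMM scaling (log axis) of the 23 miRNAs past the threshold, 1 symbol per MP library, with 8 higher in mCre above the dashed line and 15 lower below it. In each row the WT libraries (blue) and the mCre libraries (orange) do not overlap, and the first mCre library (circle) is farther from WT than the second in 22 of 23.

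The number of calls depended on the libraries in the fit. It was 0 without WT library 2, without mCre library 1 or without mCre library 2, and 39 without WT library 1, of which 14 were among the 23. One fit of all 8 libraries gave 0 calls (edgeR adjusted p of at least 0.411, and 41 of 382 with a raw p under 0.05, whereas DESeq2 on the 4 MP libraries called 83). All 23 kept their direction there, but that fit takes the MP difference from the same 4 MP libraries. The common dispersion was 0.118 in the 4 MP libraries and 0.356 in all 8. In a fit of 6 libraries that leaves out both TN replicate 2 libraries, an alternative added after seeing the data, 63 passed, the 23 included. Scaling to total counts moved the median log2 change of all tested miRNAs from -0.08 to -0.46 and the calls to 14 higher and 53 lower.

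**Figure D2:**
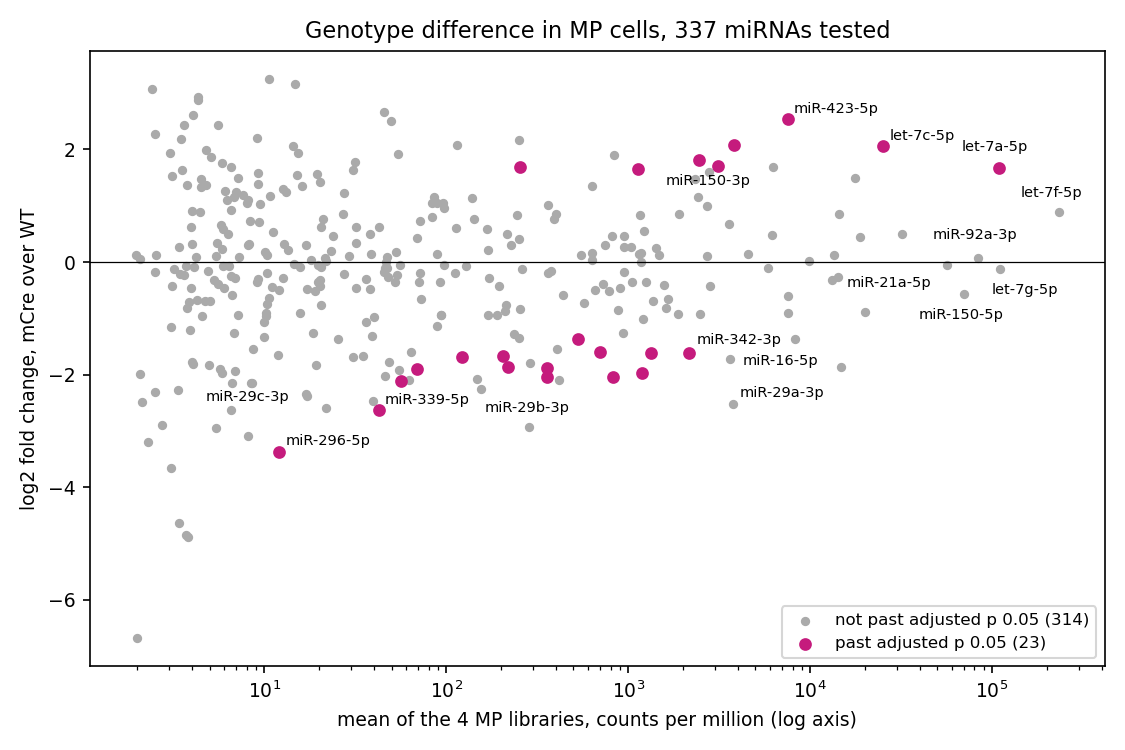
Fitted log2 fold change of mCre over WT (vertical axis) against the mean CPM of the 4 MP libraries (log axis) for the 337 miRNAs tested. The 23 past the threshold (pink) include miR-423-5p at 2.54 and miR-15b-5p at -2.03, while miR-29a-3p at -2.51 is not among them.

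The let-7 family took a larger share of the mCre libraries. Its 9 guide strands, which share the seed GAGGUAG, took 42.6% and 45.6% of all counts in the WT libraries and 63.2% and 59.5% in the mCre libraries, with 95% Wilson intervals of 42.5% to 42.6%, 45.6% to 45.7%, 63.2% to 63.3% and 59.4% to 59.5%. The exact two-sided permutation p was 0.333, the smallest possible here. Of the 9 guides, 7 had values higher in both mCre libraries than in both WT libraries, against 32.6% of all tested, and 3 were called higher, against 2.37%. The guides differ by few bases and may share reads, so they are not 9 independent values and the contrast was not tested. The median log2 change of the 9 was 0.90, against -0.08 over all tested. let-7c-5p rose from 9705 and 9860 CPM in WT to 51590 and 30040 CPM in mCre, 4.17-fold (log2 2.06 ± 0.34, SE). let-7a-5p rose from 47300 and 56780 CPM to 198200 and 134900 CPM (log2 1.68 ± 0.29). The WT libraries lay close together for both, and mCre library 1 was above mCre library 2. let-7e-5p, a scarce member, rose from 118.1 and 123.0 CPM to 442.1 and 336.4 CPM (log2 1.69 ± 0.30). The edgeR adjusted p was 0.0474 for each.

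The other let-7 guides spread widely below these. let-7b-5p was 8749 and 9802 CPM in WT and 32660 and 19280 CPM in mCre (log2 1.49 ± 0.33, edgeR adjusted p = 0.0515). let-7f-5p, the most abundant miRNA of the MP libraries, was 145800 and 178700 CPM in WT against 312900 and 291900 CPM in mCre (log2 0.90 ± 0.24, edgeR adjusted p = 0.0634). let-7d-5p had a log2 change of 0.86 ± 0.25 and let-7i-5p of 0.50 ± 0.24, neither past the threshold. let-7g-5p was 112900 and 118700 CPM in WT and lay on either side of these in mCre, at 80250 and 132200 CPM. miR-98-5p had a log2 change of -0.41 ± 0.42, also with overlap.

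**Figure D3:**
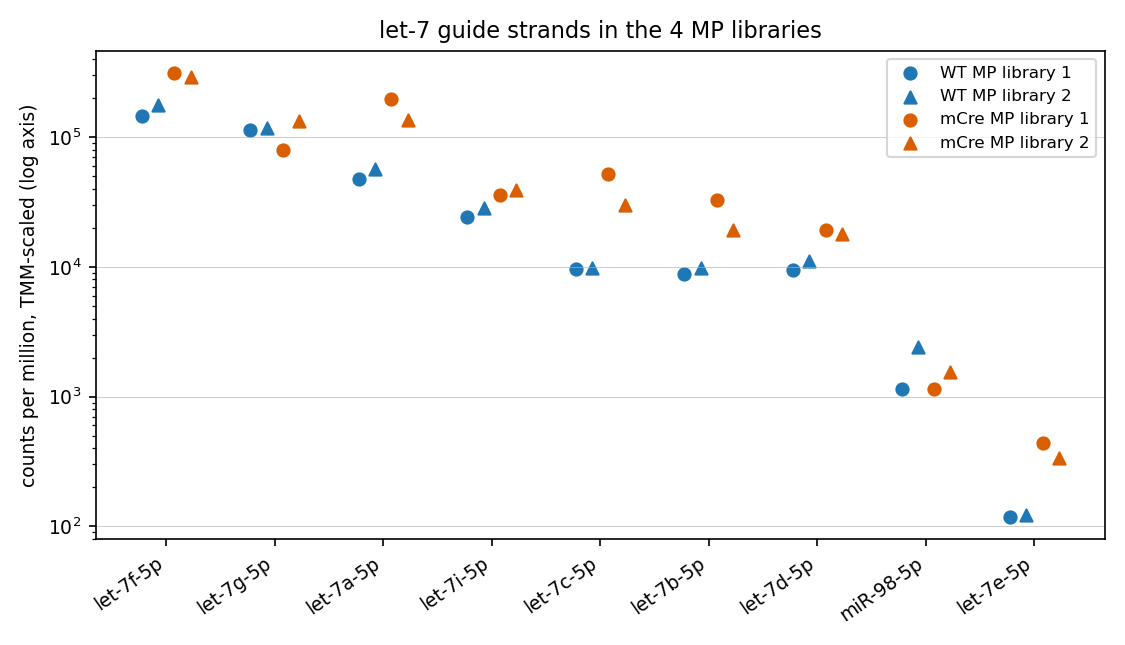
CPM after TMM scaling (log axis) of the 9 let-7 guide strands in each MP library, ordered by mean level. let-7c-5p, let-7a-5p and let-7e-5p show the widest gaps between WT (blue) and mCre (orange), while let-7g-5p and miR-98-5p overlap.

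These members differ by a few bases outside the seed. Counted from the 5′ end of let-7a-5p, let-7c-5p carries A19G, let-7e-5p U9G, let-7b-5p A17G and A19G, let-7d-5p U1A and U16C, let-7f-5p G12A, and let-7g-5p G12U and U18C. The 4 guides that carry G12A, G12U or G11A (f, g, i and miR-98) had log2 changes from -0.41 to 0.90, and the other 5 from 0.86 to 2.06. This split was noticed after the values were seen and was not tested. Reads that match several members may have been divided between them, so values of single members are uncertain to that extent. Partner strands from the other arm of let-7 hairpins had mostly negative values. Of 8 tested, 6 had a negative and 2 a positive change, with a median of -0.94, and none passed. Over all 337 tested, 179 had a negative change. let-7a-1-3p and let-7c-2-3p held the same counts in every MP library, so the same signal enters the list under both names. The median is the value of that signal. The most abundant partner, let-7d-3p, had a log2 change of 0.49 ± 0.35. let-7a-1-3p, from a hairpin on chromosome 13 (48538179 to 48538272, in an exon of 6720427I07Rik), was 149.6 and 97.0 CPM in WT and 55.2 and 73.3 CPM in mCre.

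The other 5 miRNAs that rose in mCre have no shared seed among those with a sequence. miR-423-5p, from an intron of Nsrp1 on chromosome 11 (77078064 to 77078172), had the largest fitted change of the 8, from 2244 and 2188 CPM in WT to 17350 and 8375 CPM in mCre (log2 2.54 ± 0.41, edgeR adjusted p = 0.0474). The WT libraries were nearly equal. In CPM, though not on the log scale, mCre library 1 lay farther from mCre library 2 than the latter did from either WT library. miR-148a-3p, which is known to be induced in repeatedly stimulated T helper cells, rose from 1154 and 1769 CPM to 7715 and 4712 CPM (log2 2.09 ± 0.38). miR-150-3p, the minor arm of a hairpin of mature lymphocytes, rose from 972.0 and 1197 CPM to 4714 and 2891 CPM (log2 1.81 ± 0.34). miR-320-3p, which is made without Drosha cleavage, rose 3.16-fold, and miR-669c-5p, a member of the repetitive Sfmbt2 cluster whose copies can share reads, rose 3.26-fold. The rule for named miRNAs adds miR-1981-5p and miR-664-5p, which did not pass (edgeR adjusted p = 0.0515 for both). miR-1981-5p was 101.9 and 81.2 CPM in WT and 569.3 and 251.8 CPM in mCre.

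The 3 guides with the seed AAAGUGC that passed all fell. This seed is shared by miR-17, miR-20 and miR-106 of the oncogenic miR-17-92 cluster and its paralogs. miR-93-5p fell from 583.7 and 565.2 CPM in WT to 106.1 and 171.9 CPM in mCre (log2 -2.04 ± 0.34). miR-17-5p fell from 417.5 and 265.4 CPM to 84.4 and 103.3 CPM (log2 -1.86 ± 0.36), and miR-106b-5p from 91.2 and 93.0 CPM to 16.2 and 26.02 CPM (log2 -2.11 ± 0.39). miR-20a-5p, miR-20b-5p and miR-106a-5p had changes of -2.09 ± 0.53, -2.08 ± 0.48 and -2.02 ± 0.70 that did not pass. miR-19b-3p, which carries another seed of the same cluster, fell from 215.4 and 159.1 CPM to 63.3 and 53.1 CPM (log2 -1.69 ± 0.33). The list drawn up for the 3 clusters had 18 tested strands, 15 with a negative change, 4 past the threshold (all lower) and a median of -1.76. It leaves out 2 tested strands of these clusters, miR-92a-2-5p (log2 1.77 ± 0.45, edgeR adjusted p = 0.0634) and miR-363-5p (log2 -0.19 ± 0.39). miR-92a-2-5p was higher in both mCre libraries, so the list is not the whole of the clusters. Over all 337 tested, 179 had a negative change and 15 (4.45%) were called lower. miR-92a-3p, the most abundant strand of these clusters, stood apart at 77330 and 86830 CPM in WT and 86090 and 86470 CPM in mCre. Its log2 change of 0.07 ± 0.23 became -0.30 under total count scaling.

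In the miR-15/16 family, known to restrain the cell cycle and Bcl2, 1 of 4 tested members passed. miR-15b-5p fell from 1330 and 1335 CPM in WT to 231.1 and 418.9 CPM in mCre (log2 -2.03 ± 0.36). miR-16-5p, its neighbour in an intron of Smc4 on chromosome 3 (69009902 to 69009996), was 5517 and 5675 CPM against 1196 and 2197 CPM and did not pass (log2 -1.72 ± 0.36, edgeR adjusted p = 0.0515). The same mature strand is also cut from a hairpin on chromosome 14. All 4 tested members had lower values in both mCre libraries, as did 34.1% of all tested, and their median was -1.88. Over all tested, 4.45% were called lower. miR-15a-5p was 20.5 and 113.0 CPM in WT, a wide gap, and 10.3 and 13.6 CPM in mCre.

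The 3p arms of miR-23 and part of the miR-30 family fell as well. miR-23a-3p, which limits cytotoxic function of CD8+ T cells, fell from 1932 and 1873 CPM in WT to 329.5 and 638.4 CPM in mCre (log2 -1.97 ± 0.39), and miR-23b-3p from 1036 and 1077 CPM to 273.8 and 425.8 CPM (log2 -1.59 ± 0.32). Cluster mates did not pass, with log2 changes of -0.92 ± 0.28 for miR-24-3p, -0.60 ± 0.33 for miR-27b-3p and -0.35 ± 0.40 for miR-27a-3p. The scarce 5p arms of miR-23 went the other way, at 2.06 ± 0.53 for miR-23b-5p and 1.93 ± 0.84 for miR-23a-5p. Both were higher in mCre without overlap, as were 32.6% of all tested, and did not pass. Of 11 tested strands of these clusters 7 had a negative change, with a median of -0.35 and 2 called lower, against 179 and 15 of 337 over all tested. miR-30b-5p fell from 651.8 and 471.0 CPM to 115.8 and 189.5 CPM (log2 -1.88 ± 0.37), and miR-30e-5p from 752.0 and 774.1 CPM to 258.1 and 333.8 CPM (log2 -1.37 ± 0.28). miR-30d-5p, the most abundant of the family by count, was 16820 and 14120 CPM in WT and 14130 and 11650 CPM in mCre, with overlap. The 11 tested miR-30 strands had a median of -0.26 and 2 called lower, against 4.45% of all tested.

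Several miRNAs typical of lymphocytes were lower. miR-142a-5p, made in all blood cell lineages, fell from 2004 and 1994 CPM in WT to 574.7 and 731.1 CPM in mCre (log2 -1.61 ± 0.28), and its partner miR-142a-3p was 1846 and 1364 CPM against 631.5 and 969.7 CPM (2.00-fold lower by the fitted value, edgeR adjusted p = 0.0997). miR-342-3p, from an intron of Evl, fell from 3160 and 3319 CPM to 864.7 and 1257 CPM (log2 -1.61 ± 0.30). In the resting lymphocyte list 7 of 8 tested members had a negative change, with a median of -0.77 and miR-342-3p alone past the threshold, against 179 of 337 negative and 4.45% called lower over all tested. miR-26b-5p was 14160 and 32270 CPM in WT and 4652 and 8044 CPM in mCre, miR-26a-5p 27020 and 25170 CPM against 11970 and 16260 CPM, and miR-150-5p 78800 and 89320 CPM against 44490 and 68370 CPM. These 3 were lower in both mCre libraries without overlap, as were 34.1% of all tested, and did not pass (edgeR adjusted p from 0.0634 to 0.227).

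Among miRNAs of T cell activation, miR-221-3p alone passed. It represses the cell cycle inhibitor p27, and it fell from 308.4 and 315.6 CPM in WT to 80.6 and 115.1 CPM in mCre (log2 -1.67 ± 0.32). miR-222-3p, from the same cluster and with the same seed, was 443.6 and 345.9 CPM against 347.9 and 362.8 CPM, with overlap. miR-155-5p, needed for effector and memory responses, was 1917 and 2209 CPM in WT and 1102 and 1234 CPM in mCre (log2 -0.82 ± 0.26, edgeR adjusted p = 0.0904). miR-21a-5p overlapped between genotypes, at 66750 and 47620 CPM in WT and 43160 and 67810 CPM in mCre. miR-146a-5p, a brake on NF-kB signalling, also overlapped, at 11150 and 14630 CPM against 15060 and 13160 CPM. The list of 7 tested members had a median of -0.04 and 1 called lower, against 4.45% of all tested.

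The last 3 lower miRNAs came from scarce strands. miR-339-5p fell from 97.8 and 48.6 CPM in WT to 10.3 and 13.2 CPM in mCre (log2 -2.63 ± 0.51). miR-664-3p, from an intron of Rab3gap2 on chromosome 1 (185242975 to 185243043), fell from 114.0 and 104.4 CPM to 22.7 and 35.2 CPM (log2 -1.91 ± 0.37). miR-296-5p had the largest fitted fall of the 15, with 62 and 121 counts in WT and 2 and 8 in mCre (log2 -3.36 ± 0.70), so its fold is poorly fixed. Of the remaining lists, the miR-181 family had 5 of 8 tested strands with a negative change (median -0.34), the miR-183 cluster 1 of 3 (median 0.31, and -0.06 under total count scaling) and the miR-99, miR-100 and miR-125 clusters 4 of 5 (median -0.11). None of their members passed.

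The balance between the arms of a hairpin was then taken within each library, where no scaling between libraries enters. Both arms had at least 10 counts in every MP library for 47 hairpins. The log2 ratio of 5p to 3p counts did not overlap between genotypes in 33 of them (70.2%). That share is near the 66.8% of all tested single miRNAs whose CPM did not overlap, so it does not set the ratios apart. The median size of the shift was 1.24, against a median difference of 0.55 between the WT libraries and 0.61 between the mCre libraries. Shifts went to 5p in 23 hairpins and to 3p in 24. The fitted changes of the arms, which do depend on the scaling, had opposite signs in 28 hairpins with TMM factors and in 17 with total count scaling. With 2 libraries against 2, no single hairpin can reach an exact permutation p below 0.333.

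The miR-664 hairpin had the largest shift of the 47. Its 3p arm had 445 and 449 counts in WT and 42 and 96 in mCre, while its 5p arm had 72 and 116 counts in WT and 193 and 186 in mCre. The log2 ratio of 5p to 3p thus went from -2.63 and -1.95 to 2.20 and 0.95, and the leading arm changed in both mCre libraries. The miR-342 hairpin did the same. Its 3p arm had 12338 and 14270 counts in WT and 1598 and 3431 in mCre, and its 5p arm 7375 and 4789 in WT and 7741 and 6816 in mCre. The ratio went from -0.74 and -1.57 to 2.28 and 0.99. miR-423 also changed its leading arm, from -0.99 and -0.97 to 1.72 and 0.96, with miR-423-3p at 4444 and 4291 CPM in WT and 5275 and 4318 CPM in mCre. The miR-29c hairpin did so too, from -1.58 and -3.74 in WT to 1.35 and 0.28 in mCre, on few counts. For miR-150 the 5p arm led throughout, by 6.34 and 6.22 in WT and 3.24 and 4.56 in mCre. For miR-151 and miR-23b, whose shifts were larger, the 3p arm led throughout. The miR-151 ratio went from -3.735 and -0.294 in WT to -7.018 and -4.434 in mCre, and the miR-23b ratio from -7.459 and -7.717 to -3.202 and -4.691. For miR-30b the 5p arm led in WT (1.97 and 1.29) and the 3p arm in mCre (-1.23 and -0.29). miR-106b went from -3.27 and -3.17 to -5.71 and -5.54, with its 3p arm at 882.8 and 840.1 CPM in WT and 851.2 and 1210 CPM in mCre.

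**Figure D4:**
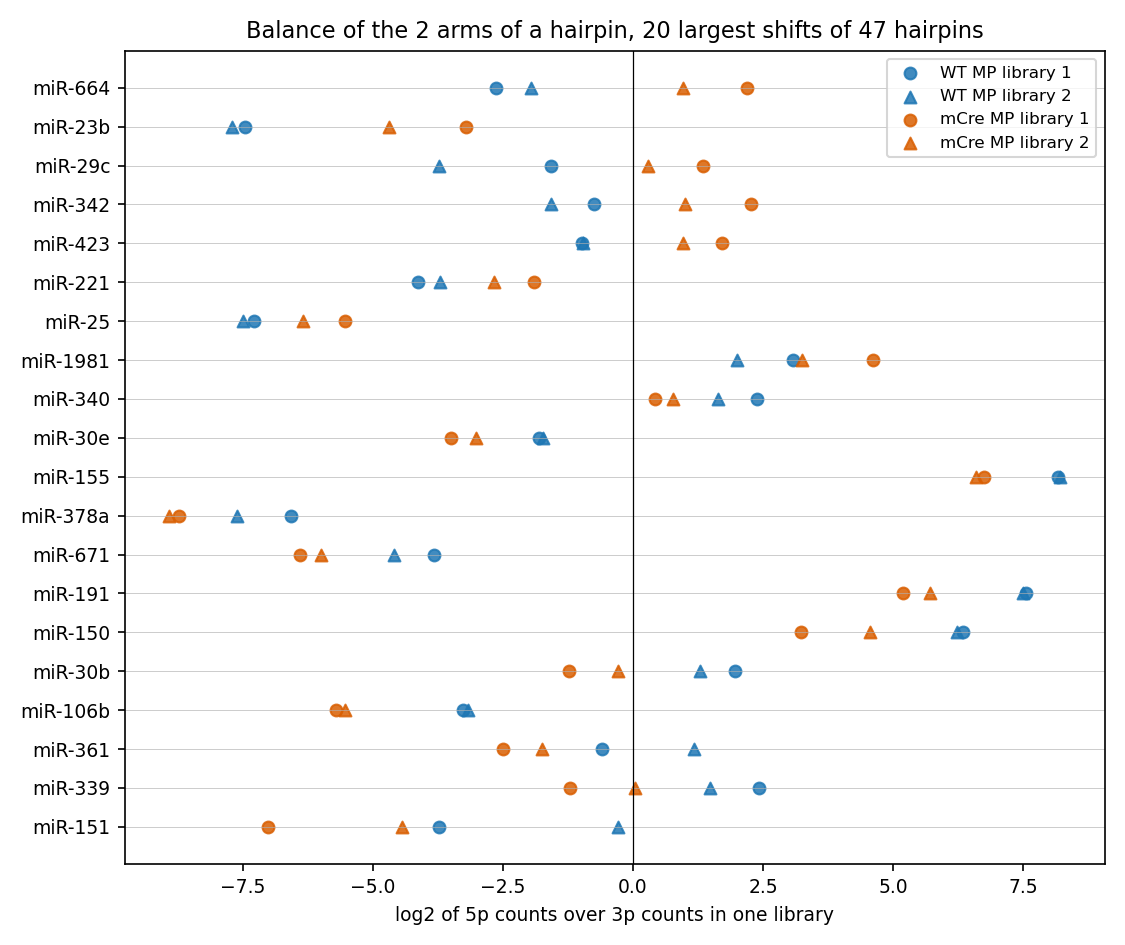
Log2 ratio of 5p to 3p counts within each MP library for the 20 hairpins with the largest shift between genotypes, of 47 with at least 10 counts per arm and library. Blue symbols are WT and orange symbols mCre, and miR-664, miR-29c, miR-342, miR-423 and miR-30b lie on opposite sides of 0, the point where both arms are equal.

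Neighbouring hairpins of one cluster also differed. In miR-17-92 on chromosome 14 (115043671 to 115044506, in exons of Mir17hg), the 9 tested strands had log2 changes from -4.63 to 0.07, with miR-92a-3p at the top. miR-92a-3p and miR-19b-3p can also come from the paralog cluster on chromosome X. In miR-106b-25 on chromosome 5 (138165321 to 138165818, within Mcm7), miR-93-5p and miR-106b-5p fell while miR-25-3p was 13640 and 15470 CPM in WT and 9911 and 13500 CPM in mCre (log2 -0.31 ± 0.27). In the miR-15b/16-2 pair all 4 strands had negative changes, from -2.03 to -1.25. Of these, miR-16-5p can also come from a hairpin on chromosome 14, whose other strand, miR-16-1-3p, was at -0.23 ± 0.35 with overlap. Beside let-7e-5p on chromosome 17, miR-125a-5p was 41.8 and 56.3 CPM in WT and 41.1 and 49.5 CPM in mCre. Differences within a cluster were not tested.

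**Figure D5:**
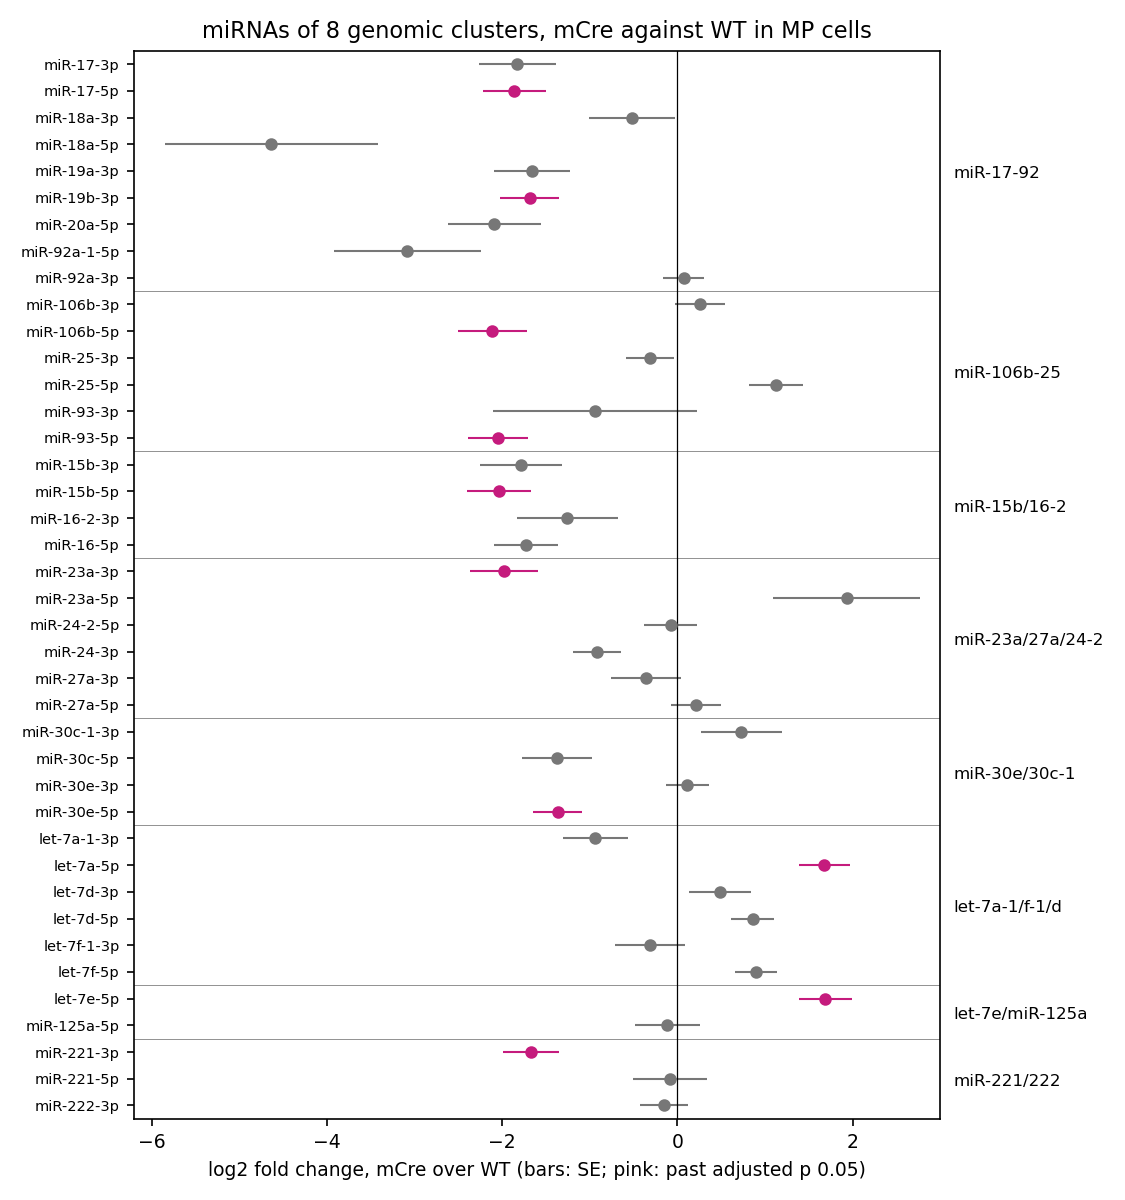
Fitted log2 fold change of mCre over WT in MP cells, with its standard error, for the tested strands of 8 of the genomic clusters that hold a miRNA past the threshold (pink). The miR-15b/16-2 strands lie together below 0, while the miR-17-92, miR-106b-25, miR-23a and miR-221 strands spread.

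Base composition was set beside the genotype difference. Across the 272 tested miRNAs with a RefSeq sequence (80.7%), the Spearman correlation of the fitted log2 change with the GC content of the mature strand was 0.27. It was 0.31 between the MP libraries numbered 1 and 0.18 between those numbered 2, and 0.32 and -0.24 for the same pairs in TN. Within a genotype it was 0.29 for mCre library 1 over library 2 and -0.08 for WT library 1 over library 2. miRNAs of one family share sequence and are not independent, and the part of GC content in the results was not tested.

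The labelled cell type was set against marker miRNAs. The lymphocyte and T cell miRNAs miR-150-5p, miR-146a-5p, miR-142a-5p, miR-142a-3p, miR-155-5p, miR-342-3p and miR-181a-5p were counted in all 4 libraries, miR-181a-5p at 444.8 CPM or more. Of these, miR-142a-5p and miR-342-3p were called lower in mCre (log2 -1.61 for each), and the others did not pass. The 2 myeloid miR-223 strands summed to 11.5 and 9.77 CPM in WT and 1.62 and 3.30 CPM in mCre. The 7 erythroid strands summed to 138.8 and 140.0 CPM in WT and 326.3 and 205.6 CPM in mCre. The endothelial and stromal list held 100.9 and 61.6 CPM against 43.8 and 49.8 CPM, the epithelial list 3600 and 2840 CPM against 2299 and 2816 CPM, and the liver, muscle and neural list 16.7 and 12.8 CPM against 44.9 and 23.1 CPM. In all 5 lists both mCre libraries lay on one side of both WT libraries, by a narrow gap in the epithelial list. The same held for 66.8% of all tested single miRNAs, so it does not set these lists apart. The erythroid, the endothelial and stromal, and the liver, muscle and neural lists each had 1 member at 0 in all MP libraries. The part of other cells in the results was not tested.

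The genotype difference in MP was set against that in TN by the interaction in one fit of all 8 libraries. None of 382 miRNAs passed (0%; edgeR adjusted p of at least 0.301, and 54 with a raw p under 0.05), and DESeq2 called 18. By that edgeR test 14 of the 23 miRNAs that passed in MP had an unadjusted interaction p under 0.05. The 23 were picked by their difference in the same MP libraries, so small p-values are favoured among them and nothing is read from that count. For let-7a-5p and miR-29a-3p the TN replicates went opposite ways. let-7a-5p was 53070 CPM in WT and 62810 CPM in mCre in TN replicate 1, and 172700 and 68080 CPM in replicate 2. miR-29a-3p was 2752 CPM in WT and 1409 CPM in mCre in TN replicate 1, and 802.1 and 15390 CPM in replicate 2. No direction in TN is read from these libraries. In miR-29 the TN replicate 2 libraries had the reverse of the genotype order in MP, and their let-7 guides took 68.7% in WT and 43.9% in mCre. Without WT TN replicate 1 the interaction gave 68 calls, and without both TN replicate 2 libraries 0 (edgeR adjusted p of at least 0.591, and 32 with a raw p under 0.05). With these 8 libraries the interaction test did not establish that the genotype effect differs between MP and TN.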

How the data were processed

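The deposited table gives expected counts in 2128 lines, 1 per mature strand and precursor, under 1978 names, of which 85 fill several lines. Of values above 0, 82.8% were whole (within 0.011) for names with 1 line and 15.8% for names in several, so reads that match several lines look divided; this was read from the values. The build was mm10, per the submitters' processing notes; for the aligner, counting tool and annotation, none was named (not given in the sources used here). Lines of a name were summed and rounded. miRNAs had to pass filterByExpr in edgeR 4.0.16 (minimum count 10, minimum total count 15) over the 4 MP libraries, leaving 337 miRNAs. TMM factors scaled total counts, and CPM values follow that scaling. The quasi-likelihood F test (robust, 2 residual degrees of freedom, R 4.3.3) was adjusted by Benjamini-Hochberg over all 337. SE is the absolute log2 change over the square root of F. The interaction used all 8 libraries. Alternatives were DESeq2 1.42.0, other scalings, no filter, the highest line kept, a replicate block and left-out libraries. The fit was tested on simulated data. Arm ratios used raw counts. Hairpins within 10 kb on a strand formed a cluster. Named miRNAs are every miR-29 form, all past the threshold (up to 15 per direction), the 10 smallest p without overlap where fewer than 10 passed in a direction, the 12 most abundant, and up to 3 per list by p; not all are printed, and strands given for an arm or cluster partner were chosen after their values were seen. The comparison and lists were chosen with earlier results of these data known. PCR reads carry no molecular identifiers used here, so intervals cover counting error only.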

Additional observations from a re-analysis of the deposited data

How the results depend on the processing

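The count of 23 miRNAs past the threshold in MP was also 23 with RLE factors (22 of the same), and was 67 with total count scaling, 43 with TMM scaling without let-7, 76 without the filter on low counts, 41 with the highest line of each name kept and 83 with DESeq2 (59 without an adjusted p), each including all 23. It was 0 in one fit of all 8 libraries and 63 in a fit of 6 that leaves out both TN replicate 2 libraries, added after seeing the data. Leaving out 1 MP library gave 0 to 39 calls, with 76, 58 and 152 at an unadjusted p under 0.05 where it gave 0 (without mCre library 1, WT library 2 and mCre library 2); the lone library is then assumed to vary like the other genotype. With the replicate block the count was 83, but same-numbered libraries share only a number (correlation of their deviations 0.03 across miRNAs). The interaction count of 0 became 10 without the filter and 18 with DESeq2, stayed at 0 with the replicate block, and ran from 0 to 68 with 1 library left out. The share of miR-29 and of let-7 guides kept its direction in all alternatives run, which the absence of overlap fixes in advance when 1 library is left out. Without 1 MP library the miR-29 difference ran from -1.03 to -0.263 percentage points and the let-7 difference from 15.4 to 19.1. All 23 kept their direction in all 13 alternatives. Every alternative uses the same MP libraries, in which all 23 were without overlap, so this was close to fixed in advance and nothing is read from it. For the 49 other named miRNAs, 97 of 440 values passed the threshold under the other settings and 9 of 196 with 1 library left out, miR-29a-3p, miR-29b-3p and miR-29c-3p among them. The sign turned in 7 of the 440 values and in 12 of the 196. Among the 7, miR-92a-3p went to -0.303 with total counts, -0.173 without the filter, -0.057 with 8 libraries and -0.094 with 6. With total counts miR-146b-5p went to -0.082 and miR-182-5p to -0.06, and with the replicate block miR-10b-5p went to 0.06. With 1 library left out, log2 changes ran from -3.395 to 0.702 for miR-29b-1-5p, -0.744 to 0.214 for let-7g-5p (0.038 without WT library 2), -0.147 to 0.271 for miR-92a-3p (-0.086 without WT library 1), -0.617 to 0.272 for miR-21a-5p (0.156 without WT library 1), -0.052 to 0.599 for miR-182-5p, -0.372 to 0.27 for miR-221-5p, -0.182 to 0.925 for miR-486a-3p, -0.861 to 0.295 for miR-126a-3p and -0.51 to 0.688 for miR-10b-5p. The cause was not tested. Depth limits strands under about 10 counts per library.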
